A study of Mus musculus with 6 samples.

Results

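The 78 nuclear genes for protein components of the mitochondrial ribosome were compared between mice given recombinant mesencephalic astrocyte-derived neurotrophic factor (rMANF) and mice given vehicle. They are the rows of the expression table whose symbol is Mrpl or Mrps followed by a digit, without pseudogene symbols, and make up 78 of the 23494 genes listed. Of these, 49 carry the large subunit name (Mrpl) and 29 the small subunit name (Mrps). The 6 libraries come from female wild-type C57BL/6 mice with B16F10 melanoma, a transplanted mouse tumour line, growing under the skin of the flank. Their tissue label is heart, which the marker levels given below go against. Vehicle mice (3 libraries) received phosphate-buffered saline, and rMANF mice (3 libraries) received 2 µg/kg, both by injection into the peritoneal cavity every day from a mean tumour volume of about 60 mm3. Mice were randomised with 8 per group, and the choice of the 3 sequenced per group is not described in the sources used here. The columns of the vehicle libraries are headed IgG in the deposited table, whereas the labels name saline as their treatment.

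Mitochondria keep their own ribosome, which makes a small set of hydrophobic respiratory chain proteins from messenger RNAs of the mitochondrial genome. Its 2 ribosomal RNAs are encoded in the mitochondrial genome, while its proteins are encoded in the nucleus, made in the cytosol and imported. Some of them descend from bacterial ribosomal proteins and others exist only in mitochondrial ribosomes. Heart muscle is rich in mitochondria, and inherited defects of several of these proteins cause cardiomyopathy in humans. Their promoters are known for binding sites of NRF1, of the ETS factor GABP and of YY1.

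The stretches of promoter sequence printed here come from 5 members. They show how the letters of such sites look in genes that lay higher with rMANF (Mrpl9, Mrps27), lower (Mrpl33, Mrps22), or were the most abundant (Mrpl52). They are RefSeq promoter windows on GRCm38.p6, trimmed to bases outside annotated exons, 5′ to 3′ on the gene's strand, with matches in capitals. The Mrpl9 stretch is chr3:94443198-94443317 (plus strand), and its capitals mark overlapping NRF1 matches on both strands. The Mrps27 stretch is chr13:99344706-99344785 (plus strand), and its capitals mark an ETS match. The Mrpl33 stretch is chr5:31613819-31613938 (plus strand) and holds no match, since the ETS match of its window lies closer to the start, beyond the bases printed. The Mrps22 stretch is chr9:98601680-98601799 (minus strand), with an ETS match. The Mrpl52 stretch is chr14:54426789-54426908 (plus strand), with an ETS match.
Mrpl9: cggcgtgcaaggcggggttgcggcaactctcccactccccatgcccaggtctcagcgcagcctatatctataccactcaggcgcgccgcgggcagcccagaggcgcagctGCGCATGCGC
Mrps27: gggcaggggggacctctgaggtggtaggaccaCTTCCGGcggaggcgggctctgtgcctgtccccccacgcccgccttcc
Mrpl33: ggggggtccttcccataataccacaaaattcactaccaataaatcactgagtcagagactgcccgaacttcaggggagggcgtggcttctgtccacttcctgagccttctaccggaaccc
Mrps22: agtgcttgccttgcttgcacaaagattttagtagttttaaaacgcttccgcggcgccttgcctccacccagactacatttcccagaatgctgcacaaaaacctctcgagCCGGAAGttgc
Mrpl52: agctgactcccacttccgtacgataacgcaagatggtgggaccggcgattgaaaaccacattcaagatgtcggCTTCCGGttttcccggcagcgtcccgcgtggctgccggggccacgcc

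A window of 300 bases (250 before to 50 after the start) was found for 69 of the 78 members by symbol, 75 windows in all. The letters searched, on both strands, were GCGCANGCG for NRF1, CCGGAAG for ETS and AAGATGGCG for YY1, where the end of an ETS match can run into a YY1 match. The ETS letters were in 26 of the 75 member windows (34.7%) and in 18.1% of the 11936 windows of all tested genes. The NRF1 letters were in 16 member windows (21.3%) and in 13.1% of the windows of tested genes. The YY1 letters were in 8 (10.7%) and 3.10%. At least 1 of the 3 was found in 42 of the 69 members. A match describes letters only and is not a measured site.

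The level of each gene is given in TPM, its proportion of all transcripts in a library after correction for transcript length, which allows levels of different genes to be set side by side. TPM retains no read number, so sequencing depth cannot be stated. A library had 18830 to 19298 genes above 0 TPM. The tissue label is heart, but the 11 listed heart muscle markers summed to only 8.23 to 68.1 TPM per library. Nppa reached at most 0.541 TPM, Actc1 at most 0.905 and Pln at most 0.0432. Tnnt2 was present in every library at 4.86 to 11.5 TPM, and the highest value of the list was Mb at 23.5 TPM in vehicle replicate 2, where Myl2 (14.9 TPM) and Tnnc1 (13.0 TPM) also peaked. The low sums go against the tissue label, and which tissue was sequenced cannot be settled here. For 20 markers of skeletal muscle the summed level was 260, 1631 and 205 TPM for vehicle replicates 1 to 3, against 149 to 169 TPM with rMANF. The 12 macrophage markers summed to 3536 to 4079 TPM with vehicle and 2087 to 2893 TPM with rMANF, and the 6 markers of dividing cells to 1034 to 1150 TPM over all libraries. Lower with rMANF without overlap between the groups were 14 of 20 skeletal muscle, 6 of 12 macrophage and 2 of 6 dividing-cell markers (Mki67 and Pcna), where 9.02% of all tested genes were lower in this way. By sign, 3 dividing-cell markers lay higher and 3 lower, with a median log2 difference (rMANF minus vehicle) of −0.04. The part of the muscle, macrophage and dividing-cell markers in the results on mitochondrial ribosomal proteins was not tested. Without vehicle replicate 2, which holds the highest muscle sum, the median difference between rMANF and vehicle on the log2 scale was 0.024 in the large and −0.051 in the small subunit. In such bulk tissue, fewer cells of a type and less RNA per cell cannot be told apart. Libraries of a group are labelled biological replicates and were taken to be separate mice.

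No mitochondrial ribosomal protein passed the test between rMANF and vehicle, and both subunits had a median difference of −0.03. Differences are rMANF minus vehicle on log2(TPM + 1) and were tested with limma over the 12865 genes whose mean reached 1 TPM, a filter that all 78 members passed. At an adjusted p under 0.05, 0 of 49 large and 0 of 29 small subunit genes were called, as were 0% of all tested genes. At an adjusted p under 0.10 no member was called either, beside 2.73% of all tested genes. The lowest adjusted p was 0.107 in the large subunit (Mrpl2) and 0.125 in the small subunit (Mrps27). At an unadjusted p under 0.05, 4 large and 1 small subunit genes lay higher with rMANF, against 13.9% of all tested genes. In the other direction 5 large and 3 small subunit genes lay lower, against 6.63% of all tested genes.

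Differences in the large subunit ran from −0.32 to 0.67 with a median of −0.03 (quartiles −0.16 and 0.09). In the small subunit they ran from −0.29 to 0.32, again with a median of −0.03. The median over all tested genes was 0.04. With median-of-ratios scaling the medians were −0.07 in both subunits and 0.0051 over all tested genes, and with quantile normalization −0.06 in the large subunit, −0.10 in the small subunit and 0.02 over all tested genes. By sign, 23 large subunit genes lay higher and 26 lower, and 13 small subunit genes lay higher and 16 lower. All 3 rMANF values were above all 3 vehicle values for 7 large subunit genes (14.3%) and 2 small subunit genes (6.90%), where the background was 18.9%. All 3 were below for 8 large subunit genes (16.3%) and 6 small subunit genes (20.7%), where the background was 9.02%. No test compares these shares. Scaling by the median of ratios moved the split in the large subunit from 7 higher and 8 lower to 4 (8.16%) and 10 (20.4%). In the small subunit it moved the split from 2 and 6 to 1 (3.45%) and 6 (20.7%). The shares of all tested genes under this scaling were 16.6% higher and 13.2% lower. Quantile normalization gave 6 (12.2%) and 10 (20.4%) in the large subunit and 1 (3.45%) and 9 (31.0%) in the small subunit. Its shares of all tested genes were 17.6% and 12.4%. Under these scalings genes that lay higher made up 55.8% and 58.7% of all non-overlapping tested genes, against 67.7% on the deposited scale. Removing a library can only add non-overlapping genes. Without vehicle replicate 1, 15 large subunit genes were lower, and without rMANF replicate 3, 11 were higher. In the small subunit 4 were higher without vehicle replicate 1, vehicle replicate 3 or rMANF replicate 2. The shares of all tested genes after a removal are not given here, so these counts stand without a background.

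**Figure D1:**
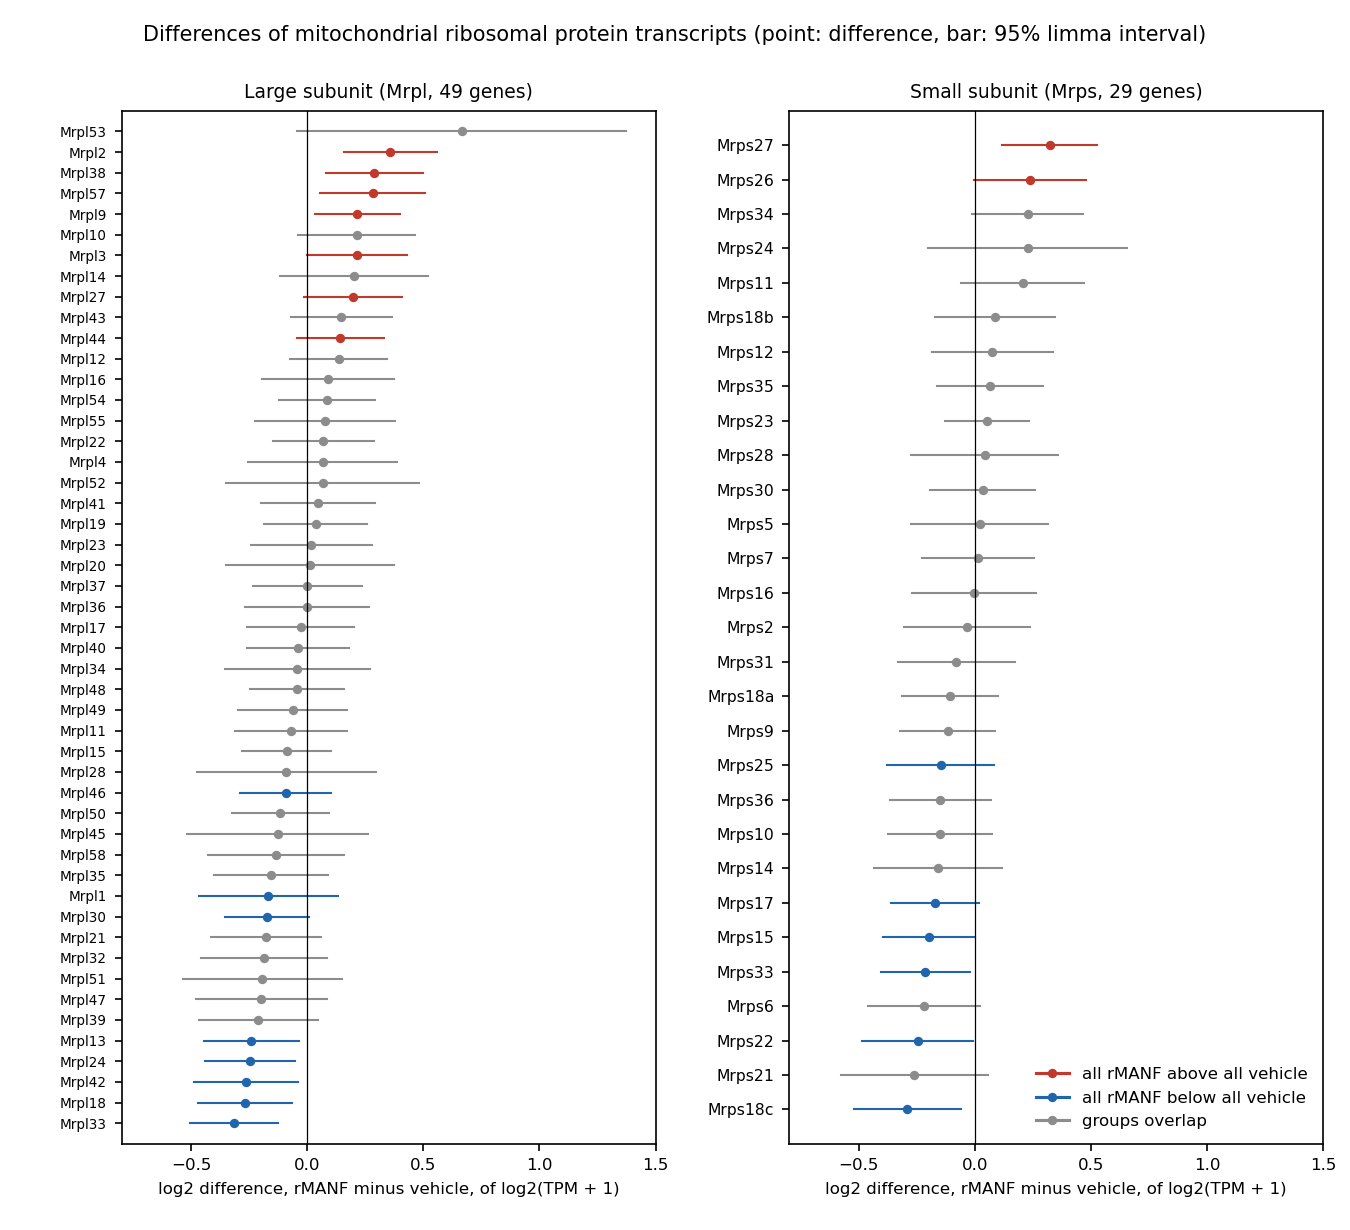
Difference between rMANF and vehicle for each of the 49 large (left) and 29 small (right) subunit genes, with the point at the limma estimate on log2(TPM + 1) and the bar spanning its 95% interval. Most bars cross 0, and apart from Mrpl53 no difference is larger than 0.36 in size; red marks genes whose 3 rMANF values all exceed the vehicle values, and blue the reverse.

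The precision of the comparison was that of the spread between 3 and 3 mice. The standard error of a difference had a median of 0.10 over the members. For 76 of the 78 (48 large and 28 small) the 95% limma interval lay within a 1.5-fold change in either direction. The exceptions were Mrpl53, whose interval ran from −0.04 to 1.37, and Mrps24, from −0.20 to 0.66. Wide intervals of these 2 genes go with a low vehicle replicate 1. Mrpl53 measured 1.18, 4.17 and 2.73 TPM in the vehicle libraries and 5.73, 4.16 and 3.83 TPM in the rMANF libraries. Mrps24 measured 41.7, 67.8 and 66.7 TPM in the vehicle libraries and 73.9, 68.4 and 60.5 TPM in the rMANF libraries. In both genes the groups overlapped.

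Members differed far more from each other than between the groups. Mrpl52, a protein found only in mitochondrial ribosomes, was the most abundant with a mean of 984 TPM. It measured 687, 1140 and 1092 TPM in the vehicle libraries and 1004, 957 and 1022 TPM in the rMANF libraries, so that vehicle replicate 1 lay below the 5 other libraries. Mrpl33, a small protein with a bacterial homologue, followed with a mean of 742 TPM. Mrps21, likewise of bacterial descent, was the highest of the small subunit with 460 TPM. In the large subunit Mrpl42 (289 TPM), Mrpl12 (200.5 TPM) and Mrpl30 (199 TPM) came next, of which Mrpl12 and Mrpl30 did not differ beyond their spread. In the small subunit Mrps6 and Mrps18c (133 TPM each) came next. The lowest was Mrpl53 with 3.63 TPM, followed by Mrps5 (12.5 TPM) and Mrpl19 (12.5 TPM), whose levels were alike within their spread. The median member stood at 49.6 TPM, against 15.9 TPM for all tested genes. The proteins are present in single copies in the assembled ribosome, apart from the stalk protein Mrpl12, while their transcripts ranged over these levels.

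**Figure D2:**
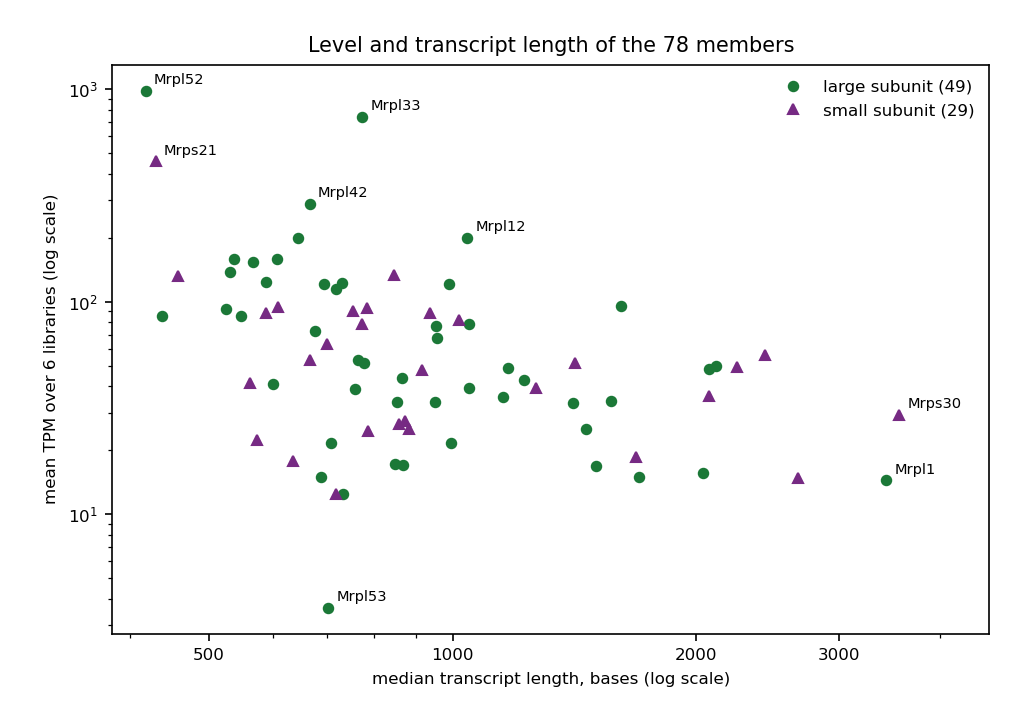
Mean TPM over 6 libraries (log scale) against median transcript length in bases (log scale) for the 49 large and 29 small subunit genes. The most abundant member of each subunit, Mrpl52 and Mrps21, has one of the shortest transcripts (418 and 430 bases), and long transcripts such as those of Mrpl1 and Mrps30 sit at low levels.

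Level went with transcript length although TPM is corrected for length. Across the 78 members Spearman's rho between mean log2 level and median transcript length was −0.45, and it was −0.17 over 12828 tested genes with a length. The points share the same 6 libraries, and the value is a description. Mrpl52 has a median transcript length of 418 bases and Mrps21 of 430 bases. Mrpl1 (3431 bases, 14.5 TPM) and Mrps30 (3561 bases, 29.5 TPM) stand at the other end. The difference between the groups did not follow length (rho 0.07) or level (rho −0.11).

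Among large subunit proteins listed with bacterial homologues (30 genes, median difference −0.01), 4 (13.3%) lay higher without overlap and 6 (20%) lower. Over all tested genes these shares were 18.9% and 9.02%. The list counts Mrpl55 (0.08, with overlap), which is found only in mitochondrial ribosomes, so the median is that of the list as used. Mrpl2 (chr17:46646229-46650139, GRCm38) binds the large ribosomal RNA beside the peptidyl transferase centre. It measured 97.1, 113.8 and 108.2 TPM in the vehicle libraries and 133.0, 133.3 and 142.8 TPM in the rMANF libraries. All rMANF libraries lay above all vehicle libraries, 1.28-fold higher on average. The log2 difference was 0.36 ± 0.09 (SE), with a limma adjusted p of 0.107. Mrpl9 (chr3:94443318-94451130), whose promoter is printed above, measured 84.9, 93.9 and 85.8 TPM in the vehicle libraries and 101.5, 106.7 and 99.5 TPM in the rMANF libraries. The groups did not overlap, and the difference was 0.22 ± 0.08 (limma adjusted p = 0.186). Mrpl3, a core protein whose human defects cause cardiomyopathy, had 21.9, 19.15 and 19.29 TPM in the vehicle libraries and 23.0, 24.5 and 22.8 TPM in the rMANF libraries. Mrpl27 sits close to the peptidyl transferase centre and had 79.6, 82.4 and 77.3 TPM against 102.3, 87.4 and 85.8 TPM. The limma adjusted p was 0.248 for Mrpl3 (0.21 ± 0.09) and 0.275 for Mrpl27 (0.20 ± 0.09). In Mrpl3 the gap between the groups was narrow, and in Mrpl27 rMANF replicate 1 stood above the other 5 libraries, without which the difference was 0.12.

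Mrpl33 (chr5:31596935-31664384) had the lowest difference of all members. It measured 844, 835 and 789 TPM in the vehicle libraries and 697, 680 and 606 TPM in the rMANF libraries, without overlap. The rMANF mean was 0.804 of the vehicle mean, a log2 difference of −0.32 ± 0.08 (limma adjusted p = 0.116). Mrpl18, a protein of the central protuberance, measured 92.7, 100.8 and 86.8 TPM in the vehicle libraries and 77.9, 81.0 and 73.3 TPM in the rMANF libraries (−0.27 ± 0.09, limma adjusted p = 0.156). Its gene (chr17:12911349-12916345) overlaps Tcp1 on the opposite strand, which stood at 428.5 TPM. The library kit does not mark strand, so reads from a stretch that both genes share cannot be told apart. Overlap of genes, here and below, is of whole gene extents with introns included, and overlap of exons was not examined. Mrpl24, an early-binding assembly protein, had 55.0, 53.5 and 50.2 TPM against 44.6, 41.9 and 46.9 TPM (−0.25 ± 0.08). Mrpl13, which also joins early, had 129, 145 and 126 TPM against 120, 109 and 109 TPM (−0.24 ± 0.09). The limma adjusted p was 0.168 for Mrpl24 and 0.184 for Mrpl13. Mrpl24 and Mrpl13 are overlapped on the opposite strand by Rrnad1 (13.8 TPM) and Mtbp (13.4 TPM), Mrpl27 by Eme1 (6.4 TPM) and Mrpl33 by Rbks (9.7 TPM). Mrpl30 had 197, 217 and 220 TPM in the vehicle libraries and 183, 186 and 193 TPM in the rMANF libraries. Mrpl1, the protein of the stalk that guides spent transfer RNA out, had 18.7, 14.0 and 13.8 TPM against 13.3, 13.7 and 13.8 TPM. Apart from vehicle replicate 1, the vehicle values of Mrpl1 (13.97 and 13.82 TPM) lie just above the highest rMANF value (13.78 TPM). The limma adjusted p was 0.257 for Mrpl30 and 0.505 for Mrpl1. Without vehicle replicate 1 the difference of Mrpl1 was −0.03, against −0.17 with it.

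The other members that the stalk, the core and the tunnel turn on overlapped between the groups. The factor-binding stalk is formed by Mrpl10, Mrpl11 and Mrpl12. The vehicle and rMANF means of Mrpl10 were 39.8 ± 4.79 and 46.2 ± 3.41 TPM (SD, n = 3). Mrpl11 stood at 15.4 ± 1.63 and 14.6 ± 0.305 TPM, and Mrpl12 at 191 ± 19.9 and 210 ± 4.5 TPM. Mrpl4, at the wall of the exit tunnel, stood at 52.1 ± 5.73 and 54.9 ± 8.88 TPM. Mrpl23 lies at the tunnel exit and stood at 121 ± 13.5 and 122 ± 12.3 TPM. Mrpl45, which tethers the ribosome to the inner membrane, stood at 26.7 ± 7.14 and 23.9 ± 1.44 TPM. Mrpl19 stood at 12.4 ± 0.720 and 12.7 ± 0.559 TPM. None of these 7 genes passed the test.

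Among large subunit proteins listed as found only in mitochondria (19 genes, median difference −0.04), 3 (15.8%) lay higher without overlap and 2 (10.5%) lower. The shares of all tested genes were 18.9% and 9.02%. Mrpl38 (chr11:116131817-116138868), a protein of the central protuberance, measured 62.9, 74.65 and 70.23 TPM in the vehicle libraries and 83, 82.3 and 88.7 TPM in the rMANF libraries. All rMANF values were above all vehicle values, with a difference of 0.29 ± 0.09 (limma adjusted p = 0.146). Mrpl57 is a small protein once named Mrp63, and it measured 12.7, 13.2 and 14.3 TPM against 16.9, 17.3 and 15.3 TPM (0.28 ± 0.10, limma adjusted p = 0.173). Mrpl44, which has a ribonuclease III fold and whose human defects cause cardiomyopathy, measured 35.3, 32.5 and 33.3 TPM against 36.0, 37.7 and 37.98 TPM (0.14 ± 0.08). Vehicle replicate 1 and rMANF replicate 1 of Mrpl44 nearly touch, and Wdfy1 (39.6 TPM) overlaps the gene on the opposite strand. Mrpl42 lay lower, with 319, 327 and 300 TPM in the vehicle libraries and 276, 283 and 231 TPM in the rMANF libraries (−0.26 ± 0.10, limma adjusted p = 0.187). Without rMANF replicate 3, the lowest library, its difference was −0.17. Mrpl46, again of the central protuberance, measured 37.1, 33.9 and 33.4 TPM against 33.3, 32.9 and 31.4 TPM. Its difference was −0.09, and −0.05 without vehicle replicate 1. Its gene overlaps that of Mrps11, a further member, on the opposite strand. Mrpl58, a peptidyl-tRNA hydrolase built into the large subunit, had vehicle and rMANF means of 42.9 ± 6.77 and 38.8 ± 3.26 TPM (SD, n = 3), with overlap.

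**Figure D3:**
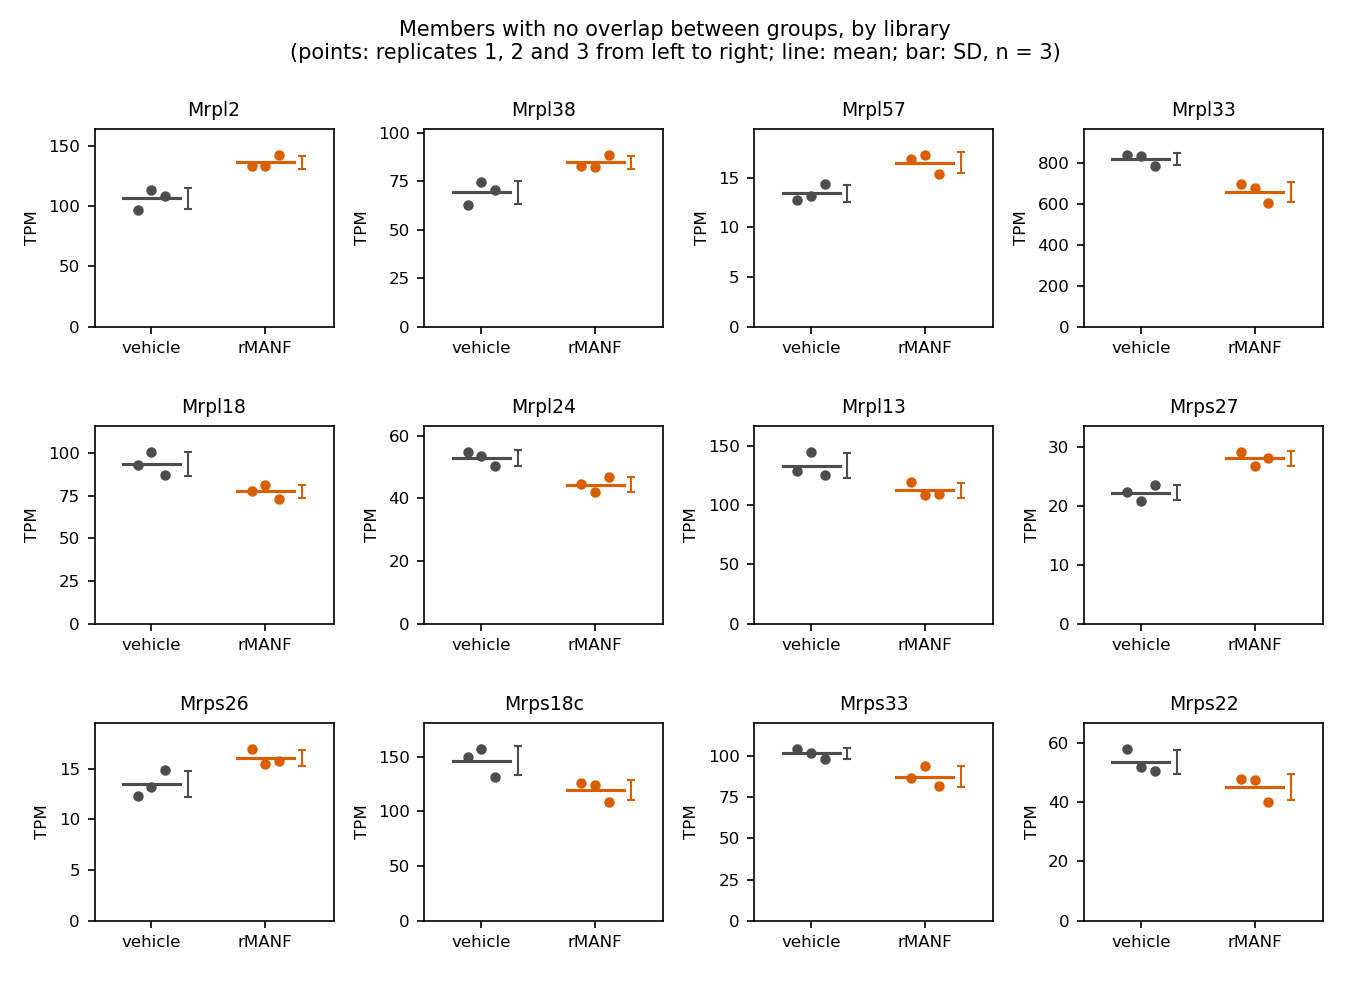
TPM in each library for 12 members whose groups do not overlap, with replicates 1 to 3 from left to right, the mean as a line and the SD as a bar (n = 3). The gaps between groups are small beside the levels: in Mrpl2 the highest vehicle value is 113.8 TPM and the lowest rMANF value 133.0 TPM, and in Mrpl33 the lowest vehicle value is 789 TPM and the highest rMANF value 697 TPM.

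Small subunit proteins with bacterial homologues (16 genes, median difference −0.07) had 0 members higher without overlap and 3 (18.8%) lower. The shares of all tested genes were 18.9% and 9.02%. Mrps18c (chr5:100798627-100804471), the one of 3 paralogues that takes the place of the bacterial protein, measured 149, 157 and 132 TPM in the vehicle libraries and 126, 124 and 108 TPM in the rMANF libraries. Its groups did not overlap, with a difference of −0.29 ± 0.10 (limma adjusted p = 0.167). The paralogue Mrps18b stood at 76.5 ± 9.44 and 81.1 ± 6.79 TPM, and Mrps18a at 93.5 ± 5.37 and 86.7 ± 6.68 TPM (SD, n = 3), and both overlapped between the groups. Mrps15 measured 91.8, 100.4 and 90.6 TPM in the vehicle libraries and 88.0, 80.5 and 77.98 TPM in the rMANF libraries. Mrps17 measured 27.6, 28.8 and 28.0 TPM against 23.7, 25.7 and 25.3 TPM. Mrps15 and Mrps17, whose bacterial counterparts bind the ribosomal RNA directly, had limma adjusted p-values of 0.245 and 0.287. The decoding protein Mrps12 stood at 85.6 ± 6.01 and 90.7 ± 11.5 TPM (SD, n = 3). Mrps2, Mrps5, Mrps7 and Mrps28, which lie along the path of the messenger RNA or in the head of the subunit, also overlapped. Their means with vehicle and rMANF were 57.2 and 55.5 TPM for Mrps2, 12.4 and 12.6 TPM for Mrps5, 38.9 and 39.3 TPM for Mrps7, and 92.2 and 94.4 TPM for Mrps28. Mrps21, the most abundant of the group, measured 419, 542 and 545 TPM in the vehicle libraries and 447, 355 and 454 TPM in the rMANF libraries, and overlapped through vehicle replicate 1. Mrps6 stood at 143 ± 8.90 and 123 ± 14.8 TPM, with overlap.

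Small subunit proteins listed as found only in mitochondria (10 genes, median difference 0.06) had 2 members (20%) higher without overlap and 3 (30%) lower. The shares of all tested genes were 18.9% and 9.02%. This list counts Mrps18b, although it is a paralogue of Mrps18c, which has a bacterial counterpart. Mrps27 (chr13:99344786-99415562), a pentatricopeptide repeat protein, measured 22.3, 20.9 and 23.5 TPM in the vehicle libraries and 29.2, 26.8 and 28.2 TPM in the rMANF libraries. The groups were well apart, 1.26-fold on average, with a difference of 0.32 ± 0.09 (limma adjusted p = 0.125). Mrps26 measured 12.3, 13.2 and 14.9 TPM against 17.0, 15.5 and 15.8 TPM (0.24 ± 0.10, limma adjusted p = 0.246). On the lower side, Mrps33 measured 104.5, 101.9 and 98.2 TPM in the vehicle libraries and 86.6, 94.2 and 81.9 TPM in the rMANF libraries (−0.21 ± 0.08, limma adjusted p = 0.204). Mrps22 (chr9:98588730-98601660), in which human defects cause cardiomyopathy, measured 58.1, 52.0 and 50.6 TPM against 47.9, 47.4 and 39.9 TPM (−0.25 ± 0.10, limma adjusted p = 0.233). Without rMANF replicate 3, the lowest library, its difference was −0.16. Mrps25 measured 20.9, 17.4 and 18.3 TPM against 17.0, 16.3 and 17.4 TPM. Its difference was −0.15, and −0.08 without vehicle replicate 1. In Mrps25 vehicle replicate 2 and rMANF replicate 3 were almost equal, and Nr2c2 (18.1 TPM) overlaps the gene on the opposite strand. In all, 23 members are overlapped by an opposite-strand gene of at least 1 TPM.

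The remaining 3 small subunit names were kept out of the role lists above. All 3 count among the 29 small subunit genes in the medians, counts and sums of that subunit. Mrps30 and Mrps18a carry small subunit names, but their proteins sit in the large subunit. Mrps30 had vehicle and rMANF means of 29.2 ± 2.97 and 29.8 ± 0.937 TPM (SD, n = 3). Mrps36, which is also a subunit of the 2-oxoglutarate dehydrogenase complex, stood at 43.6 ± 2.49 and 39.3 ± 3.38 TPM. Both genes overlapped between the groups.

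Summed over their genes, the large subunit transcripts measured 4725, 5543 and 5290 TPM in the vehicle libraries and 5176, 4968 and 4928 TPM in the rMANF libraries. The small subunit transcripts measured 1995, 2156 and 2080 TPM in the vehicle libraries and 2008, 1856 and 1896 TPM in the rMANF libraries. Both sums overlapped, the large one widely and the small one through vehicle replicate 1 and rMANF replicate 1. The rMANF mean was 0.969 of the vehicle mean for the large and 0.925 for the small subunit. The list of mitochondrial ribosome proteins without an Mrp symbol had 6 rows: Dap3, Aurkaip1, Chchd1, Ptcd3, Gadd45gip1 and Oxa1l. Oxa1l is a membrane insertase that docks at the ribosome rather than a ribosomal protein. All 6 overlapped between the groups, with a median difference of −0.04 that counts Oxa1l (0.12). The 88 cytosolic ribosomal protein rows, 85 of them tested, had a median difference of 0.01.

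**Figure D4:**
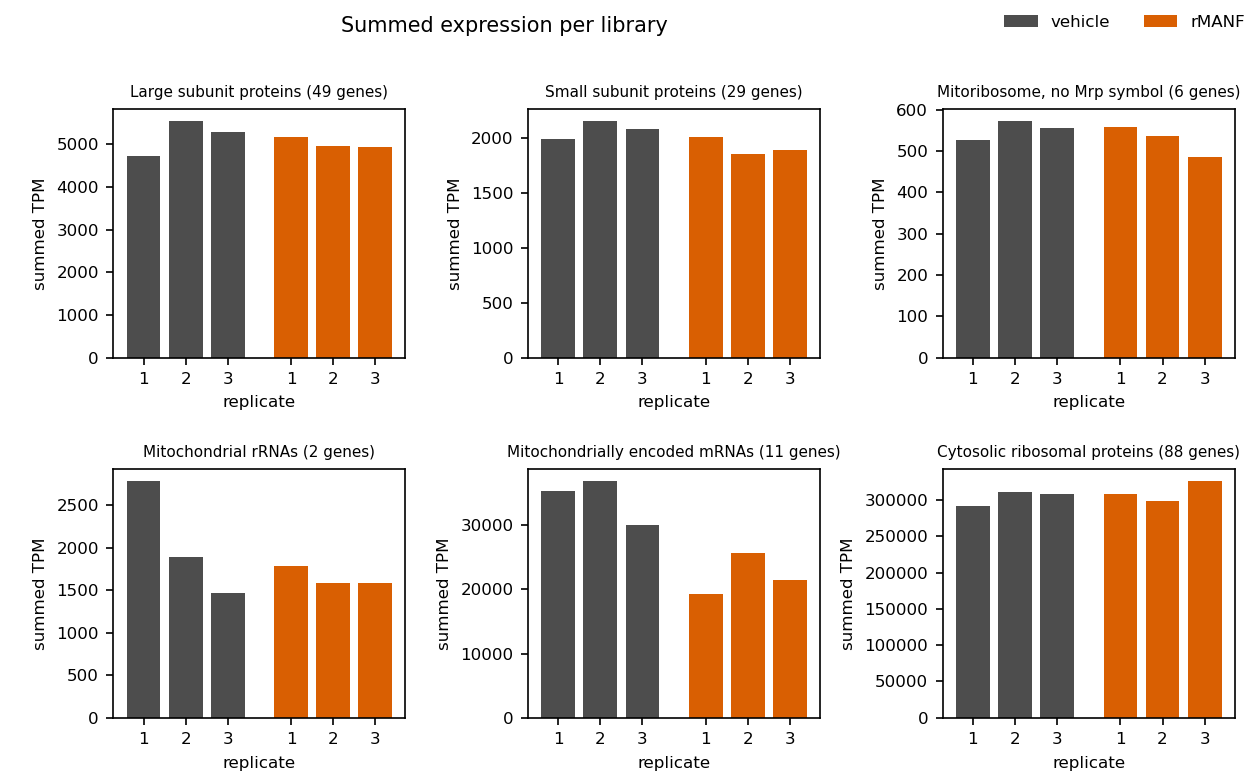
Summed TPM in each library (bars from 0, replicates 1 to 3 of vehicle in grey and of rMANF in orange) for 6 gene groups. The group without an Mrp symbol counts Oxa1l, which is not a ribosomal protein. The sums of both sets of mitochondrial ribosomal protein genes overlap between the groups, while the mitochondrially encoded messenger RNAs are lower in all rMANF libraries.

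The RNAs that the mitochondrial ribosome is built on and translates were measured in the same libraries. The small subunit ribosomal RNA mt-Rnr1 measured 2380, 1620 and 1239 TPM in the vehicle libraries and 1555, 1354 and 1358 TPM in the rMANF libraries, with overlap. The large subunit ribosomal RNA mt-Rnr2 measured 404, 269 and 232 TPM against 227, 230 and 222 TPM (−0.37 ± 0.18, limma adjusted p = 0.294). Its groups just failed to overlap, and vehicle replicate 1 was the highest library for both RNAs. The 11 listed mitochondrially encoded messenger RNAs were all lower with rMANF, with a median difference of −0.73. Of these, 8 did not overlap, where 9.02% of all tested genes were lower in this way. A limma adjusted p under 0.10 was reached by 7, beside 2.73% of all tested genes, and 0.05 by none. Their summed level had vehicle and rMANF means of 34121 ± 3544 and 22199 ± 3235 TPM (SD, n = 3). Levels within the list were very uneven. Over the 6 libraries mt-Co1 averaged 11994 and mt-Cytb 5891 TPM, while mt-Co3, mt-Atp6, mt-Nd3 and mt-Co2 averaged 14.6 to 20.2 TPM. The sum therefore rests on the abundant genes, and the cause of the unevenness was not tested. The difference between these RNAs and the ribosomal proteins was not itself tested.

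Other genes of mitochondrial translation were given by lists. Of 25 tested factors that assemble the ribosome or modify its RNA, 4 lay higher without overlap (16%, beside 18.9% of all tested genes). In this list 0 lay lower without overlap, beside 9.02%, and the median difference was 0.11 with no call. Differences in this list ran from −0.38 to 0.36. At an unadjusted limma p under 0.05 there were 4 genes higher and 1 lower, beside 13.9% and 6.63% of all tested genes. Rpusd3, a pseudouridine synthase, measured 5.11, 5.49 and 5.46 TPM in the vehicle libraries and 7.14, 7.39 and 6.998 TPM in the rMANF libraries. Dhx30, an RNA helicase, had a difference of 0.28 ± 0.10 and Trub2, a further pseudouridine synthase, of 0.19 ± 0.08. Of 18 translation factors, only Tsfm (0.14 ± 0.08) lay higher without overlap (5.56%, beside 18.9% of all tested genes). Only Gfm2 and Mtif3 (−0.09 ± 0.09 each) lay lower without overlap (11.1%, beside 9.02%). By sign, 4 of the 18 translation factors lay higher and 14 lower. Of 9 genes for transcription and upkeep of mitochondrial DNA, 7 had a positive and 2 a negative difference, and 2 lay higher without overlap (22.2%, near the 18.9% of all tested genes). These were the RNA polymerase Polrmt (0.31 ± 0.10) and the polymerase subunit Polg2 (0.20 ± 0.12). Tested activators of nuclear mitochondrial genes numbered 7, and 3 of them, Nrf1, Pprc1 and Gabpa, lay higher without overlap, beside 18.9% of all tested genes. Nrf1 measured 15.7, 15.1 and 17.3 TPM in the vehicle libraries and 18.8, 19.0 and 20.3 TPM in the rMANF libraries (0.26 ± 0.09, limma adjusted p = 0.185). Gabpa measured 38.1, 36.0 and 37.1 TPM against 38.35, 42.9 and 39.8 TPM, with vehicle replicate 1 and rMANF replicate 1 almost equal. Yy1 overlapped. Among members with a window, those holding the NRF1 letters numbered 16 and had a median difference of 0.08, and those without them had −0.06. Of these 16, 4 lay higher and 1 lower without overlap, beside 18.9% and 9.02% of all tested genes. For the ETS letters the medians were −0.02 with and −0.07 without, and for the YY1 letters −0.0003 and −0.04.

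Differences among the members went with the base composition of their transcripts. Across the 78 members Spearman's rho between the difference and GC content was 0.51, and it was 0.38 over 12828 tested genes. The points share the same 6 libraries, and the value is a description. The median GC content was 51.6% for the 9 members higher without overlap, 47.6% for the 14 lower and 52.1% for the 55 that overlapped. The difference of vehicle replicate 1 from the mean of vehicle replicates 2 and 3 had a rho with GC content of −0.47 over the members and −0.41 over the tested genes. Vehicle replicate 1 was the lowest of the 6 libraries for 25 members and the highest for 22, in all 60.3% of members against 50.8% of tested genes. With each library's GC trend removed, 7 large subunit genes were higher and 5 lower without overlap, and 3 small subunit genes were higher and 4 lower. The shares of all tested genes with the trend removed are not given here, so these counts stand without a background. Removing the trend took the log2 difference of Mrpl2 from 0.36 to 0.24, of Mrpl38 from 0.29 to 0.15, of Mrps33 from −0.21 to −0.14 and of Mrpl1 from −0.17 to −0.03. The differences of the other 19 non-overlapping members moved by less than 1.5 times.

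**Figure D5:**
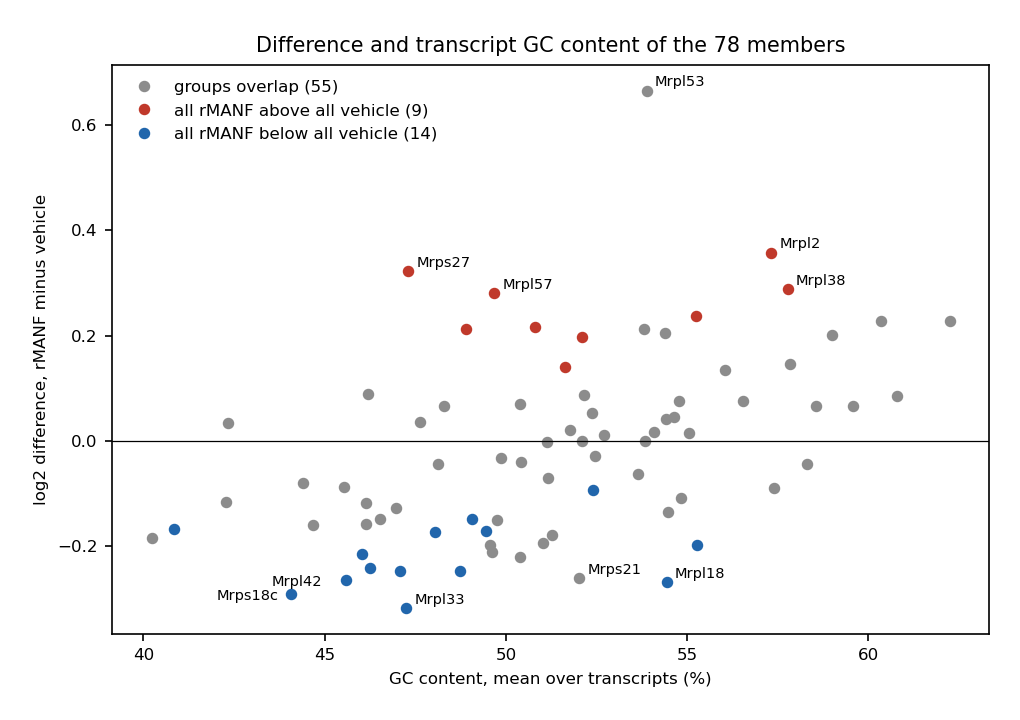
Difference between rMANF and vehicle, on log2(TPM + 1), against the mean GC content of each gene's transcripts (percent) for the 78 members. Blue points (14 members, all rMANF values below all vehicle values) lie mostly below 50% GC, and the cloud slopes upward to the right with a rho of 0.51; Mrps27 and Mrpl57 lie higher at low GC content, and Mrpl18 lower at high GC content.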

How the data were processed

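RNA was measured in 6 libraries, 3 vehicle and 3 rMANF, made with the Nextera XT kit from total RNA per the labels' protocols. The tools listed in the submitters' processing notes are Salmon 0.14.1, HTSeq 0.11.0, fastp and cutadapt, with the build mm10; their roles, the annotation and any filter are not stated there or in the labels. The authors deposited log2 TPM per gene; 2 to that power gave TPM (sums of 999980 to 1000003 per library), and the deposited log2 value −9 was read as 0 TPM. No count test fits TPM. Differences of log2(TPM + 1), which understate changes of low genes, were fitted with limma 3.58.1 in R 4.3.3 (mean trend, two-sided, Benjamini-Hochberg over the 12865 genes whose mean reached 1 TPM, threshold 0.05). The procedure was tested on simulated data. Coordinates, transcript length and GC content came from GENCODE M21 (GRCm38, the assembly mm10), with GC content for 99.7% of tested genes. GC and length trends were removed by loess (span 0.5). Members and lists were chosen with earlier results of these data known. Named members are up to 8 of smallest p per direction and subunit without overlap, the 5 highest and 3 lowest by TPM, and a list by role. For pathway lists, up to 3 of smallest p per direction were named. Alternatives covered pseudocount, filter, threshold, scaling, variance model, library weights, replicate block, GC, length and left-out libraries.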

Additional observations from a re-analysis of the deposited data

How the results depend on the processing

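Limits are 3 libraries per group, unknown depth and a unit that is a share of each library. No member was called in either subunit under any alternative run, except 1 large subunit gene (Mrpl2, 0.33) with library weights. The share of all tested genes called with library weights is not given here, so this call stands without a background. The standard error of Mrpl2 was 0.063 with library weights, against 0.087 in the main fit. The replicate numbers did not pair the libraries (correlations of same-numbered deviations −0.07, 0.03 and 0.05), and with the replicate block 0 large and 0 small subunit genes were called. No member without overlap changed sign, which for left-out libraries is fixed by choosing members without overlap. Other named members did change sign. With the GC trend removed Mrpl4 went from 0.07 to −0.12 and Mrpl52 from 0.07 to −0.09. Among the members without overlap, the smallest differences were −0.025 for Mrpl1 and −0.037 for Mrpl46, both without vehicle replicates 1 and 2. Library weights gave −0.06 for Mrpl1, −0.05 for Mrpl46, −0.19 for Mrps18c and 0.15 for Mrps26. Quantile normalization gave 0.08 for Mrpl44 and −0.15 for Mrpl46. Of counts without overlap, median-of-ratios scaling gave 4 higher in the large and 1 in the small subunit, beside 16.6% of all tested genes. Quantile normalization gave 1 higher in the small subunit, beside 17.6% of all tested genes, and GC trend removal gave 5 lower in the large subunit. Each left-out library in turn gave 8 to 11 higher and 8 to 15 lower in the large subunit, and 2 to 4 higher and 7 to 9 lower in the small subunit. Without vehicle replicates 1 and 2 together the counts were 13 and 17 in the large and 7 and 11 in the small subunit, since fewer libraries overlap less often. No share of all tested genes is given beside the counts for GC trend removal and left-out libraries. The large subunit median ran from −0.054 to 0.024 over left-out libraries, the highest without vehicle replicate 2. The small subunit median was −0.071 with median-of-ratios scaling, −0.10 with quantile normalization, −0.075 to −0.039 over left-out libraries and 0.0047 without vehicle replicates 1 and 2. Other causes of these shifts were not tested.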

Other observations

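Many mitochondrial ribosomal protein genes share a promoter region with a neighbour transcribed the other way. Of the 78 members, 26 had a protein-coding partner on the opposite strand whose start lay within 1000 bases or overlapped the member by up to 500 bases. Mrps11 and Mrpl46 are each other's partner, and counting them once the partner was tested in 24 pairs, with differences of the same sign in 14. Mrpl2 starts 207 bases from Klc4, a kinesin light chain gene, which measured 10.2, 10.4 and 10.6 TPM in the vehicle libraries and 13.8, 15.6 and 14.2 TPM in the rMANF libraries. Both genes lay higher with rMANF without overlap (0.36 and 0.44). Mrpl30 starts 66 bases from Mitd1, which measured 41.7, 30.2 and 31.3 TPM in the vehicle libraries and 26.9, 26.6 and 27.0 TPM in the rMANF libraries. Both lay lower without overlap (−0.17 and −0.33). Mrpl51 and Ncapd2, a condensin subunit gene 100 bases away, had differences of opposite sign (−0.19 and 0.40), and Ncapd2 alone was without overlap. Mrps27 (0.32) starts 81 bases from Ptcd2, whose difference was 0.01. Mrps18c (−0.29) starts 29 bases from Helq (0.11). These pairs were picked after their values were seen.

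The pseudogene rows left out of the members were Mrpl23-ps1 and Mrpl48-ps. Mrpl23-ps1 measured 0.278, 1.88 and 0.556 TPM in the vehicle libraries and 1.40, 0.562 and 0.573 TPM in the rMANF libraries. Mrpl48-ps was listed at 0 in all libraries but vehicle replicate 1 (0.232 TPM).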
